A study of Mus musculus with 28 samples.

Results

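The first 2 days of reprogramming of WT mouse cells were followed by poly(A) RNA-seq, by comparing the 2 WT libraries of d2 with the 2 WT libraries of d0 for every gene in the table. These 4 libraries were chosen by their labels and make up 4 of the 28 libraries of the series. WT d0 is a culture of mouse embryonic fibroblasts (MEFs), the connective tissue cells of the embryo that serve as the usual starting material. WT d2 is labelled as a reprogramming intermediate, taken at day 2 of reprogramming with OKSM, the factors Oct4, Klf4, Sox2 and Myc. The series is about H3K36 methylation, a mark on histone H3, and it pairs each WT stage with cells carrying K36M, a lysine-to-methionine change of that histone residue. Library names give H3_3 for the WT cells, which the labels do not explain further. How the factors were delivered to the cells is not given in the sources used here. MEFs grew in DMEM with serum and reprogramming cells in a medium called AGi, so that the factors, the medium and 2 days of culture changed together between d0 and d2 and cannot be told apart. Beside this comparison stand the 2 libraries of WT MEFs without OKSM (noOKSM), which carry another library-name prefix than the d0 and d2 libraries, and the 4 libraries of K36M cells at d0 and d2. Nothing in the labels ties the 2 replicates of a group to separate cultures. Each p-value below therefore reflects only how far the sequenced libraries vary, and that variation may be technical.

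Induced pluripotency begins with fibroblasts that are spread, contractile and rich in secreted matrix. In the earliest phase, the introduced factors act on chromatin throughout the genome, fibroblast genes are switched off, division speeds up, and a shift from mesenchymal towards epithelial traits starts. The endogenous pluripotency network, with Nanog and its partners, is known to be activated late and in few cells. In bulk RNA, fewer cells that express a gene and less RNA of that gene per cell cannot be told apart.

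Total gene counts were 22050529 and 23421174 at d0 and 24273218 and 25698814 at d2. Levels are given as CPM, the number of a gene's counts relative to a fixed library total, scaled by edgeR's TMM method, which sets the levels of most genes to be alike between libraries. Of 37620 genes listed, 16932 had enough counts to be tested. The edgeR quasi-likelihood test with Benjamini-Hochberg adjustment called 9779 genes at an adjusted p below 0.05, which is 57.8% of those tested: 4586 genes (27.1%) were higher at d2 and 5193 (30.7%) were lower. Because most genes passed, a second test asked for a change beyond 2-fold, and 3070 genes (18.1%) passed it, 1131 of them higher (6.68%) and 1939 lower (11.5%). The median log2 fold change over all tested genes was 0. Libraries scaled by their total counts alone gave 6391 higher and 3952 lower, with the median at 0.22, and beyond 2-fold 1624 higher and 1526 lower, so the balance between rises and falls depends on the scaling. Both d2 libraries lay below both d0 libraries for 39.5% of tested genes and above them for 37.9%, so separation of the groups was common. Neither count of calls moved by over 1.5 times when any of the 4 libraries was left out (8621 to 8874, and beyond 2-fold 2692 to 2762).

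**Figure D1:**
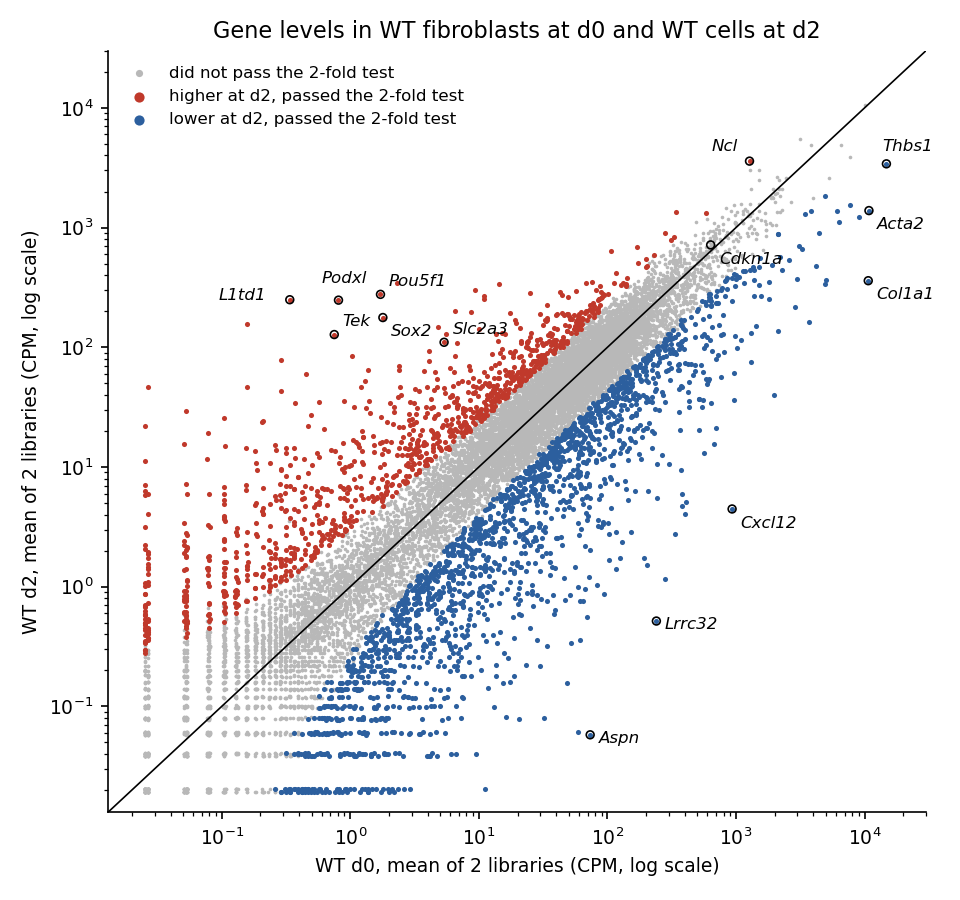
Each point is 1 of 15753 tested genes, at its mean CPM over the 2 WT d0 libraries (x axis) and the 2 WT d2 libraries (y axis), both on log scales, with the line of equal levels; 1179 genes at 0 on a day cannot be drawn. Genes that passed the 2-fold test form a broad cloud on both sides, and below the line it reaches the most abundant fibroblast transcripts, such as Thbs1, Acta2 and Col1a1.

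The 4 factors were read first, since they check the labels. Pou5f1, which codes for Oct4 and lies on chromosome 17 of mm9 from 35642982 to 35647721, stood at 1.34 and 2.09 CPM in the d0 libraries and at 288 and 266 CPM at d2. Sox2 stood at 1.29 and 2.30 CPM at d0 and 178 and 176 CPM at d2. Both were near 0 in fibroblasts and well above every fibroblast library at d2, with log2 fold changes of 7.32 ± 0.28 and 6.61 ± 0.25 (approximate SE). Klf4 and Myc, which fibroblasts express on their own, went from 55.7 and 57.8 to 302 and 291 CPM and from 80.0 and 70.9 to 347 and 351 CPM. Their log2 fold changes were 2.39 ± 0.14 and 2.21 ± 0.21, and the edgeR adjusted p of the 4 factors lay between 9.96e-16 and 8.85e-09. Counts per gene do not separate reads of introduced copies from reads of the cells' own genes, which limits the values of the factors and of H3f3a below. In the noOKSM fibroblasts, Pou5f1 stood at 0 and 0.0403 CPM and Sox2 at 0.105 and 0.0403 CPM, below the d0 libraries, and these differences from d0 passed the same test (adjusted p = 6.51e-05 and 5.98e-05). H3f3a, 1 of the 2 genes for histone H3.3, was at 49.1 and 43.3 CPM at d0, 195 and 177 CPM at d2 and 163 and 154 CPM in noOKSM. It was thus higher than at d0 in both of the other groups, while H3f3b, the other H3.3 gene, had a log2 fold change of 0.01 at d2 that did not pass (adjusted p = 0.933; under total-count scaling 0.27, which passed).

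**Figure D2:**
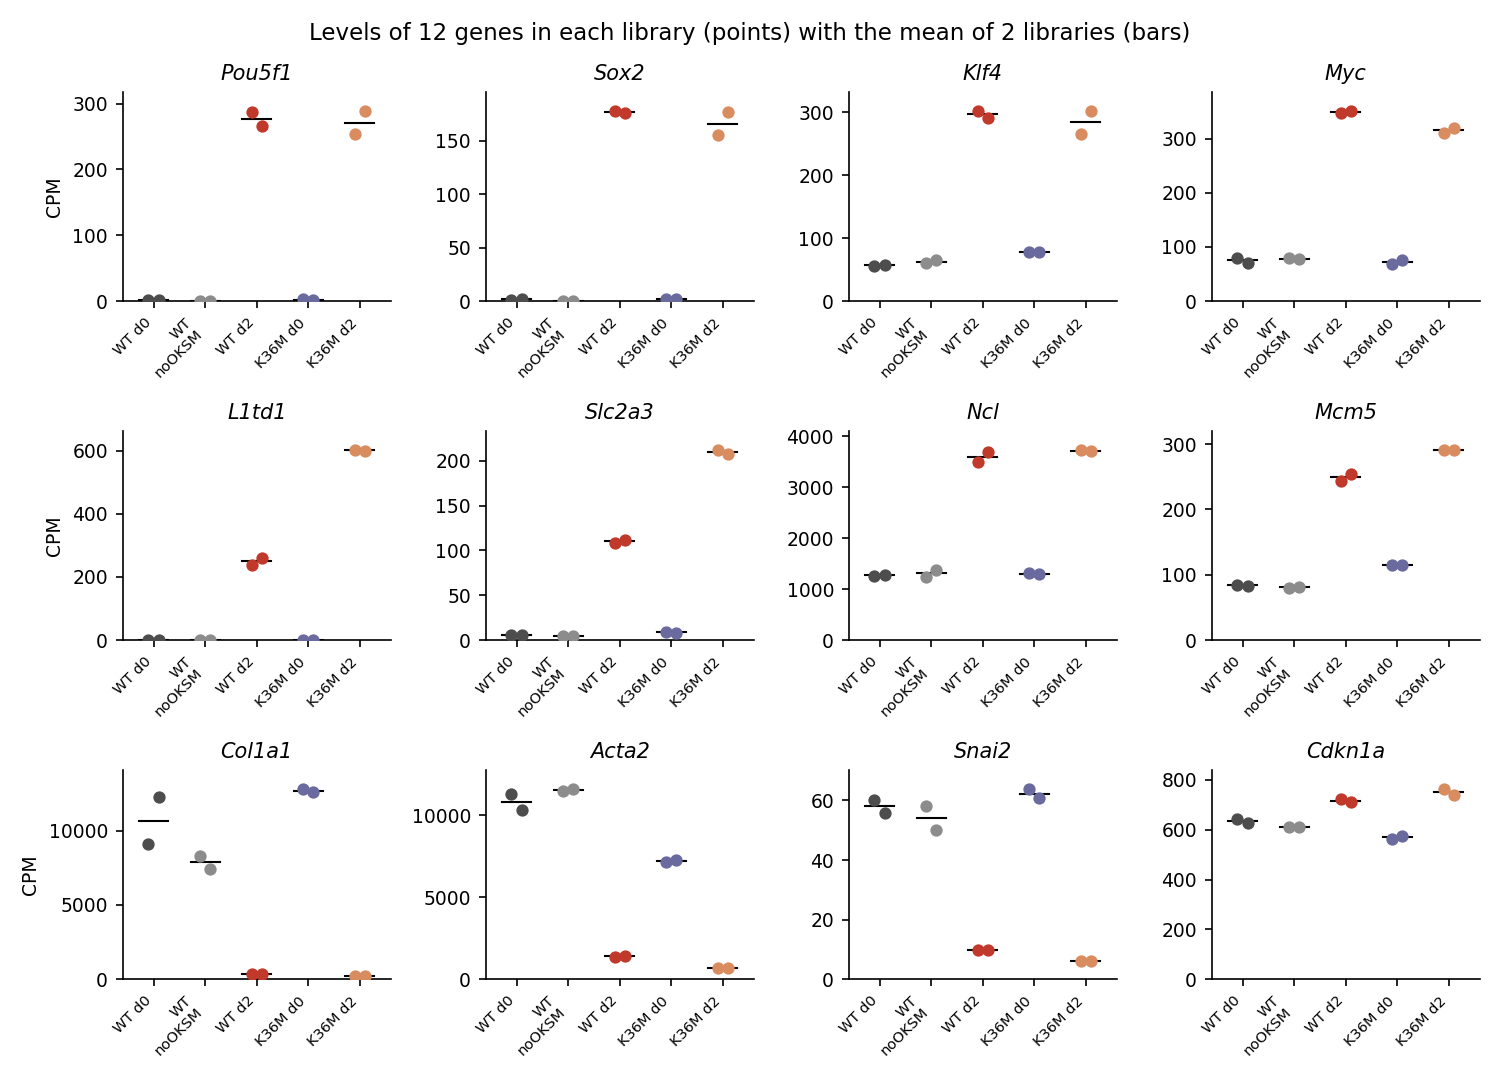
CPM of 12 genes in each library (points) of WT d0, WT noOKSM, WT d2, K36M d0 and K36M d2, with bars at the mean of 2 libraries; every y axis starts at 0 and has its own range. The factors, L1td1, Slc2a3, Ncl and Mcm5 stand higher in both d2 groups, Col1a1, Acta2 and Snai2 stand lower, and Cdkn1a lies between 563 and 764 CPM in all 10 libraries.

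The label MEF held against its markers. The 29 listed fibroblast matrix genes, which code for collagens and other secreted proteins, took 5.89% and 7.00% of all counts in the d0 libraries, and Col1a1 and Fn1 were among the 10 most abundant genes with a change beyond 2-fold. At d2 the same genes took 1.27% and 1.26%. Of the 29 genes, 26 fell, 24 of them beyond 2-fold, 1 rose (Col6a1) and 2 did not pass, and the median log2 fold change was -2.87. Col1a1, a chain of type I collagen, stood at 9075 and 12287 CPM at d0 and at 360.2 and 359 CPM at d2. Its d0 libraries differed from each other, and both stood far above both d2 libraries (29.7-fold on average), and the log2 fold change was -4.89 ± 0.24 (edgeR adjusted p = 1.08e-13). Postn, which codes for the matrix protein periostin, went from 1940.2 and 1980.3 CPM to 41.4 and 38.2 CPM. Bgn, the proteoglycan biglycan, went from 3527 and 3824 to 163 and 162 CPM. Eln, elastin, went from 65.3 and 74.4 to 0.572 and 0.540 CPM, a log2 fold change of -6.96 ± 0.25 and the largest fall of the list. For these 4 genes each d2 library lay below each d0 library. In noOKSM fibroblasts the list took 7.14% and 6.56% of counts, and Eln was already low there, at 14.7 and 13.8 CPM.

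The enzymes that process collagen moved in the same direction. All 17 tested genes of this list fell, 11 of them beyond 2-fold, with a median log2 fold change of -1.66. Loxl2, a lysyl oxidase that cross-links collagen, stood at 1916 and 2296 CPM at d0 and 138 and 138 CPM at d2. Adamts2, which trims procollagen, went from 39.1 and 42.7 to 2.90 and 2.20 CPM, and Bmp1, which also cleaves procollagen, from 524 and 539 to 70.8 and 70.7 CPM. The 18 tested matrix proteases and their inhibitors all fell as well, 15 beyond 2-fold, with a median of -2.45 (-2.26 with the gene at 0 on d2 set to its bound). Among them Plat, the tissue plasminogen activator, went from 106 and 101 to 3.27 and 2.28 CPM, and Mmp19, a matrix metalloprotease, from 9.77 and 9.90 to 0.327 and 0.193 CPM. Every one of these d2 values lay below every d0 value.

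Fibroblast surface genes were mixed. Of 16 tested, 11 fell (8 beyond 2-fold) and 4 rose (3 beyond 2-fold). Pdgfrb and Pdgfra, the receptors for platelet-derived growth factor, went from 382 and 436 to 5.06 and 5.21 CPM and from 35.9 and 35.97 to 1.27 and 1.23 CPM. Itga11, a collagen-binding integrin chain, went from 241 and 320.5 to 1.06 and 1.27 CPM, which was a log2 fold change of -7.90 ± 0.22. Thy1, the surface protein often used to sort fibroblasts from reprogramming cells, stood at 1025 and 923 CPM at d0 and 124 and 124 CPM at d2 (log2 fold change -2.97 ± 0.15, edgeR adjusted p = 5.93e-14). The 4 genes that rose were Icam1, Vcam1, Ly6a and Cd34.

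**Figure D3:**
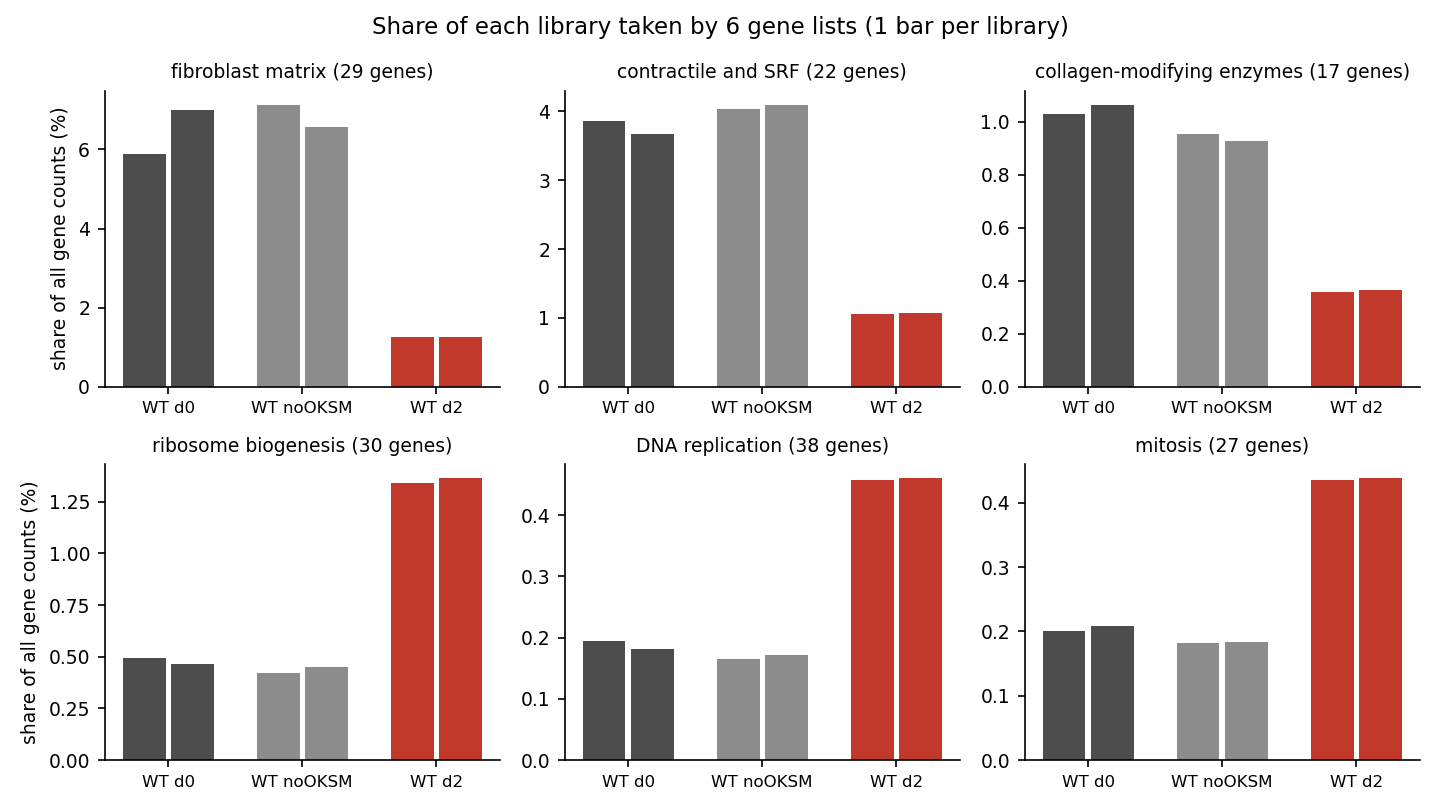
Share of all gene counts (y axis, in %, from 0) taken by 6 gene lists in the 2 libraries (bars) of WT d0, WT noOKSM and WT d2. Matrix, collagen-modifying and contractile genes took a smaller share at d2, and ribosome biogenesis, DNA replication and mitosis genes a larger one, while the noOKSM bars stand near those of d0.

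Contractile genes fell together. These genes code for actins, myosins and their partners, and many are targets of the serum response factor SRF, which binds a sequence named the CArG box. Of 22 tested, 21 fell and 18 of them beyond 2-fold, with a median log2 fold change of -2.18, and their share of counts went from 3.86% and 3.68% at d0 to 1.06% and 1.06% at d2. Acta2, smooth muscle actin, stood at 11323 and 10303 CPM at d0 and 1353 and 1419 CPM at d2. Tagln, transgelin, went from 6915 and 5625 to 1102 and 1134 CPM, and Tpm1, a tropomyosin, from 6408 and 5872 to 1367 and 1383 CPM. The d0 and d2 libraries were far apart for each. The largest falls were those of Mylk, myosin light chain kinase, from 84.3 and 80.9 to 0.817 and 1.23 CPM (log2 fold change -6.32 ± 0.17), Lmod1, Cnn1 and Myh11, whose log2 fold changes were -4.82, -4.74 and -4.52. In noOKSM cells Acta2 stood at 11492 and 11597 CPM, and 4 genes of the list were higher and none lower than at d0 by edgeR's test (of all genes tested there, 8.2% were called, 4.15% higher and 4.06% lower).

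Promoters from RefSeq (build GRCm38.p6, 250 bases before to 50 after each start) were available for 16 of the 21 contractile genes that fell. A strict CArG box, searched on both strands, was present in 4 of their 18 promoters (22.2%), against 535 of 32851 promoters in all (1.63%). With 1 base other than A or T allowed in its core, the box was present in 5 of 18 (27.8%), against 9.98% of all promoters. That looser box was also present in 7 of 35 promoters of the replication genes that rose (20%) and in 3 of 19 of the matrix genes that fell (15.8%). These are matches of letters and say nothing about binding in these cells. The list was drawn up around SRF and its targets, so a high share of boxes was likely from the start and does not bear on the fall. The promoters of Srf, the factor's own gene (chr17:46556113-46556412, minus strand), and of Acta2 (chr19:34255324-34255623, minus strand) are shown because the first holds strict boxes and the second belongs to the most abundant gene of the list at d0. Capitals mark strict boxes in Srf and boxes with 1 altered core base in Acta2.
Srf: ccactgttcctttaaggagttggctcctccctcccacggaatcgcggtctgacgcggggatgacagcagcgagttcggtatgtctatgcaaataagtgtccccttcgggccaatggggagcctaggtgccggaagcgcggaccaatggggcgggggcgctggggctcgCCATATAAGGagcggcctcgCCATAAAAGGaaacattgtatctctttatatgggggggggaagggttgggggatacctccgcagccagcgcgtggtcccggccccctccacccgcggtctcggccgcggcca
Acta2: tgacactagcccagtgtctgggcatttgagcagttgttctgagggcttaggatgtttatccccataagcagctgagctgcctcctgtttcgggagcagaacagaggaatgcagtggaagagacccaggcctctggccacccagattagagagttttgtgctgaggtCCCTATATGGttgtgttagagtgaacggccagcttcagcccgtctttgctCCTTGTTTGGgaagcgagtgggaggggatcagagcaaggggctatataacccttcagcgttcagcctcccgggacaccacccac
Srf itself fell, with CPM values of 159 and 163 at d0 and 94.5 and 83.1 at d2 (log2 fold change -0.86 ± 0.09, edgeR adjusted p = 4.38e-08).

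Genes of the TGF-beta pathway, the signal that maintains matrix and contractile programmes in fibroblasts, were lower at most levels. Of 21 tested, 16 fell (11 beyond 2-fold), 2 rose and 3 did not pass, with a median of -1.36. Among the ligands, Tgfb3 went from 609 and 671 to 33.7 and 34.2 CPM and Inhba, the activin A chain, from 397 and 446 to 42.3 and 42.2 CPM. Ltbp2, of the family that binds latent TGF-beta in the matrix, went from 546 and 694 to 54.9 and 53.6 CPM. The 2 genes that rose were the receptor Tgfbr1 and the target Tgfbi, the latter from 18.7 and 18.3 to 83.9 and 80.4 CPM. Targets and partners of YAP and TEAD, which respond to tension, also leaned lower: 13 of 17 fell and 2 rose, with Ctgf going from 3208 and 2715 to 360.3 and 380.3 CPM, Ankrd1 from 583 and 532 to 35.8 and 36.3 CPM, and Tead4, a TEAD factor, rising from 8.91 and 8.98 to 48.8 and 46.4 CPM.

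Other signalling lists were mixed. Of 18 BMP and Id genes, 8 fell and 5 rose, and the sign of their median log2 fold change depended on the scaling (-0.04, and 0.23 with total counts). The BMP inhibitor Grem1 fell from 268 and 261 to 13.6 and 11.8 CPM, and so did the ligand Bmp4 from 13.4 and 15.9 to 2.25 and 2.12 CPM, while the ligand Bmp6 rose from 1.29 and 1.22 to 10.7 and 10.3 CPM. Of 16 genes in the Wnt list, 6 rose (Axin2, Tcf7, Notum, Znrf3, Tnfrsf19 and Ascl2) and 3 fell (Rnf43, Lgr5 and Apcdd1). Among the falling genes Lgr5, a receptor for R-spondins, went from 3.97 and 4.90 to 0.368 and 0.386 CPM. Of 14 genes that report or restrain ERK signalling, 6 fell and 3 rose, and Spry1, an inhibitor of the pathway, went from 88.5 and 89.6 to 5.23 and 6.52 CPM. Of 11 AP-1 genes, 9 fell and 2 rose (Fos and Fosl1), with Jund going from 111 and 108 to 43.3 and 46.6 CPM; only 3 of the falls were beyond 2-fold, and with total-count scaling 5 fell. With that scaling, 6 of the ERK genes rose and 6 fell.

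Most mesenchymal transcription factors, which hold cells in a fibroblast state, fell. Of 22 tested mesenchymal factors, 17 fell (9 beyond 2-fold) and 3 rose, with a median log2 fold change of -1.07. Snai1 and Snai2, repressors of the epithelial cadherin gene, stood at 55.2 and 61.4 and at 60.3 and 55.9 CPM at d0, and at 8.29 and 8.83 and 9.64 and 9.72 CPM at d2. Their log2 fold changes were -2.77 ± 0.19 and -2.58 ± 0.17, with edgeR adjusted p of 2.49e-11 and 9.20e-12. Zeb2 and Twist1 fell by less, from 86.5 and 97.3 to 40.8 and 43.1 CPM and from 51.0 and 49.0 to 30.0 and 27.8 CPM, and Prrx1, abundant in fibroblasts, stood at 461 and 487 and then 354 and 359 CPM. The small fall of Prrx1 (log2 fold change -0.41 ± 0.14, adjusted p = 0.0124) did not pass when WT d0 replicate 2 or either d2 library was left out (adjusted p 0.0687, 0.0644 and 0.0523), or with total-count scaling (log2 fold change -0.15). The clearest falls were those of Foxc2 (56.9 and 60.7 to 3.43 and 3.43 CPM), Osr1 (24.4 and 24.0 to 1.59 and 1.54 CPM) and Meox1, which had no count at d2 and was at least 39.2-fold lower. Its relative Meox2 rose, from 0.161 and 0.204 to 4.21 and 5.48 CPM.

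Epithelial genes had started from very low levels. Of 30 tested, 11 rose (5 beyond 2-fold), 4 fell and 15 did not pass, and over the 23 members that exceeded 3 counts on at least 1 day the median log2 fold change was 1.94, with a gene at 0 set to its bound. Their summed level went from 67.3 and 57.4 CPM at d0 to 148 and 143 CPM at d2, far below the 2609.7 and 2535 CPM of WT iPSCs. In noOKSM fibroblasts the sum was 96.4 and 102.6 CPM, between those of d0 and d2. Only 2 of the 30 genes were higher there than at d0, and 2 were lower. Of all genes tested, 4.15% were higher and 4.06% lower. Dsp, whose levels are given below, was 1 of the higher genes, so the sum does not show a shared rise of the list. St14, a membrane protease of epithelia, went from 1.07 and 1.07 to 11.1 and 11.5 CPM. Cldn6, a tight junction claudin, went from 0.107 and 0.102 to 1.35 and 1.505 CPM, and Ehf, an epithelial ETS factor with no count at d0, reached 4.17 and 3.90 CPM, at least 51.4-fold higher. Krt7 fell, from 4.67 and 3.21 to 0.163 and 0.309 CPM. The other falls were those of Krt18, Cldn4 and Spint2, with log2 fold changes of -2.59, -1.52 and -1.06. Cdh1, the epithelial cadherin, and Epcam stayed under 1 CPM: Cdh1 stood at 0.376 and 0 CPM at d0 and 0.408 and 0.424 CPM at d2, and Epcam at 0.429 and 0.255 and 0.531 and 0.656 CPM. Neither passed in edgeR's test (adjusted p = 0.155 and 0.126), although Epcam passed with total-count scaling (0.0343) and Cdh1 passed when WT d0 replicate 1, the library that held all of its d0 reads, was left out (adjusted p = 0.00274). Krt8 had a log2 fold change of 0.73 ± 0.24 that passed (adjusted p = 0.0273), but not without WT d0 replicate 1 or WT d2 replicate 1 (0.491 and 0.244).

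Of the 27 pluripotency genes, 6 rose, 4 fell and 17 did not pass, and 11 members had at most 3 counts on both days. L1td1, an RNA-binding protein of pluripotent cells, stood at 0.268 and 0.408 CPM at d0 and at 239 and 260.2 CPM at d2 (log2 fold change 9.50 ± 0.21), against 487 CPM on average in WT iPSCs. Fgf4, a growth factor gene bound by Oct4 and Sox2, had no count at d0 and 9.84 and 10.9 CPM at d2, at least 132-fold higher, with 360.1 CPM in iPSCs. Fbxo15, the gene used in early reprogramming reporters, rose from 0.0537 and 0 to 0.490 and 0.386 CPM, against 109 CPM in iPSCs. Nanog stayed low: it stood at 0.429 and 0.612 CPM at d0 and 0.163 and 0.154 CPM at d2, a fall that passed (log2 fold change -1.69 ± 0.44, edgeR adjusted p = 0.00537) but not without WT d0 replicate 2 (adjusted p = 0.0922). Sall4 was at or below 0.0510 CPM in all 4 libraries. Klf2, a relative of Klf4, fell from 21.7 and 18.2 to 0.654 and 1.08 CPM. Tfcp2l1 and Trim71 were also among the genes that rose. With total-count scaling 8 of the pluripotency genes rose and 3 fell.

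**Figure D4:**
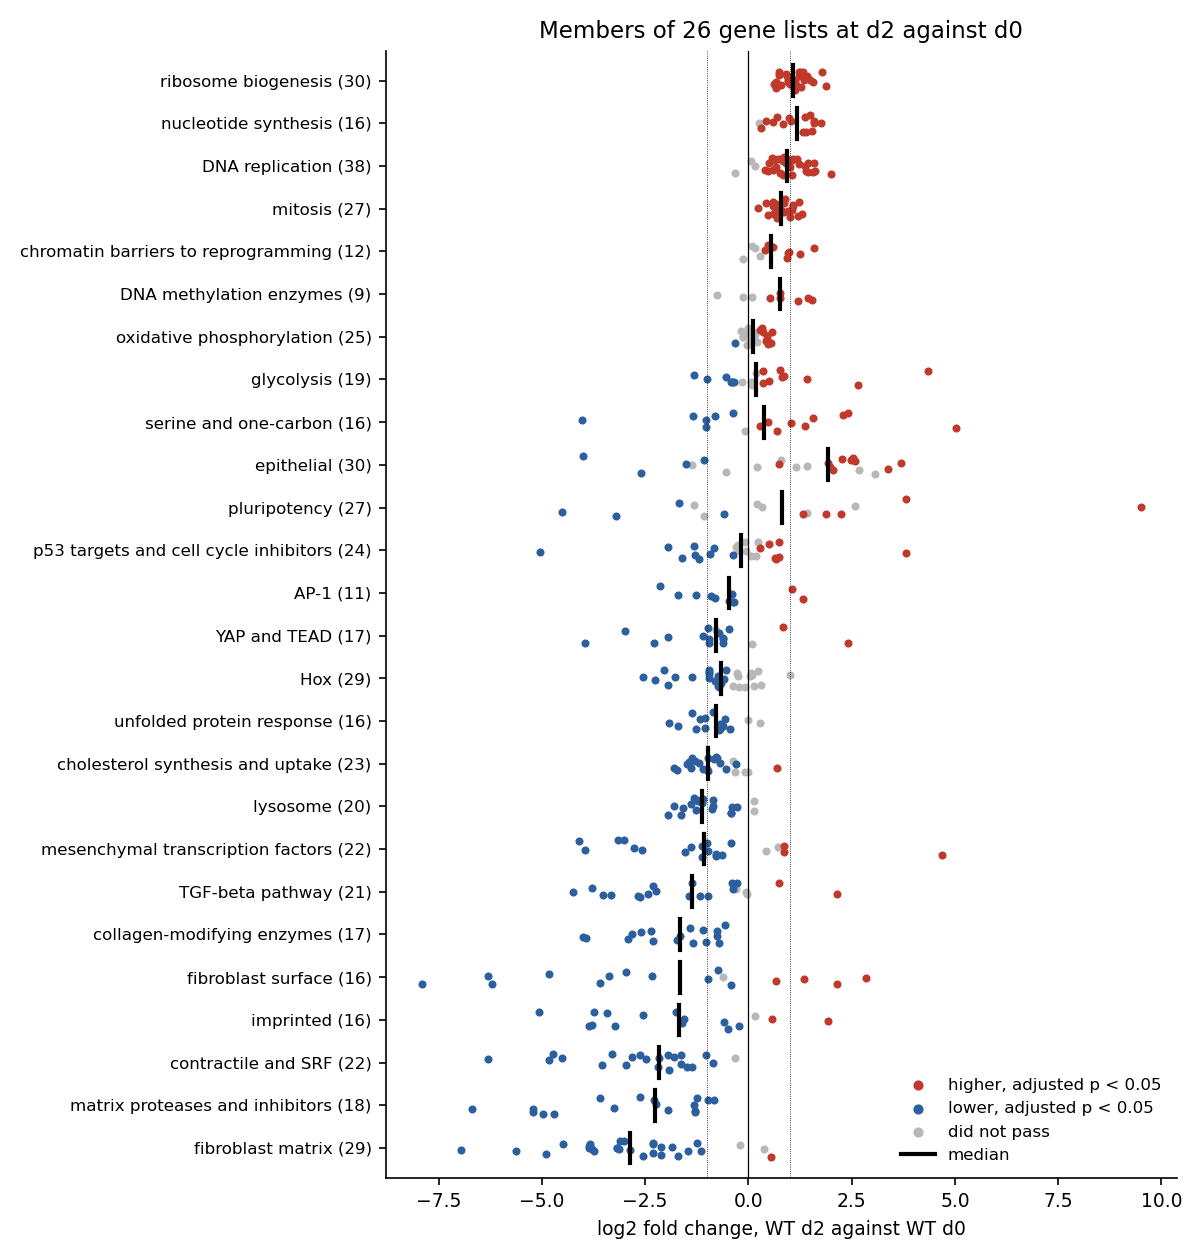
Members of 26 gene lists (points) by their log2 fold change in WT d2 against WT d0 (x axis; positive is higher at d2), with the number of tested members in brackets, the median as a black bar and dotted lines at 2-fold. Members with no count on a day or at most 3 counts on both days are not drawn, and the former enter the median at their bound. Ribosome, nucleotide, replication and mitosis genes lie almost wholly to the right of 0, and matrix, protease and contractile genes almost wholly to the left.

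Cell division genes rose. Of 38 DNA replication genes, 35 rose, 8 of them beyond 2-fold, and none fell; Gins2, Gins4 and E2f1 did not pass. Their median log2 fold change was 0.92, and their share of counts went from 0.194% and 0.182% to 0.458% and 0.461%. All 27 mitosis genes rose, with a median of 0.78 and 1 beyond 2-fold. Mcm5, a subunit of the replicative helicase, stood at 85.1 and 83.6 CPM at d0 and 244 and 255 CPM at d2 (log2 fold change 1.56 ± 0.08, edgeR adjusted p = 7.17e-14). Mcm10, which helps to start the helicase, went from 20.3 and 20.6 to 80.6 and 84.1 CPM, and Pola1, the catalytic chain of DNA polymerase alpha, from 35.9 and 38.4 to 111 and 112 CPM. Mki67, the proliferation marker Ki-67, stood at 189.8 and 258 and then 527 and 520.4 CPM, and Espl1, the protease separase, at 32.1 and 33.1 and then 84.0 and 76.4 CPM. For all 5 genes each d2 library lay above each d0 library. In noOKSM cells none of the 38 replication genes was higher than at d0 and 2 were lower, where 4.15% of all genes were higher and 4.06% lower.

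RefSeq promoters were available for 30 of the 35 replication genes that rose. An E2F word (TTTCCCGC, TTTCGCGC, TTTGCCGC or TTTGGCGC on either strand, overlaps counted) was present in 14 of their 35 promoters (40%), against 2.26% of all promoters of the same length. It was present in 3 of 29 promoters of the ribosome genes that rose (10.3%) and in 2 of 18 of the contractile genes that fell (11.1%). E2F factors are the known regulators of S-phase genes, and matching letters do not show binding. A high share of words in a list of such genes was thus likely from the start and does not bear on their rise. The promoters of Mcm5 (chr8:75109259-75109558, plus strand) and Mcm6, another helicase subunit (chr1:128359656-128359955, minus strand), are shown because each holds a pair of words on opposite strands that share bases, beside a further word in Mcm6. Capitals mark the words.
Mcm5: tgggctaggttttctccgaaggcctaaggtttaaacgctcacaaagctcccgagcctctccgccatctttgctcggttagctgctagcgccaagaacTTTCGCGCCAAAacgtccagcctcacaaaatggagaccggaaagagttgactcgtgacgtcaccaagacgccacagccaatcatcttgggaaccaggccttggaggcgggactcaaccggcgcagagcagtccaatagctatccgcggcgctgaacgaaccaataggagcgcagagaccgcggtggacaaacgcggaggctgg
Mcm6: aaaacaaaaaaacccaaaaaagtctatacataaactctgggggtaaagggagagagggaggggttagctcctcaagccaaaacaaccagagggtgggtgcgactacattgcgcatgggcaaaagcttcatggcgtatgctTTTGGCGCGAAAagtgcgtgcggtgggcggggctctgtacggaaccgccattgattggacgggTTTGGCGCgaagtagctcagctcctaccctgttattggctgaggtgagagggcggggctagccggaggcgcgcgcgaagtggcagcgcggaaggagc
Mcm6 stood at 167 and 162 CPM at d0 and at 329 and 309 CPM at d2 (log2 fold change 0.95 ± 0.07, edgeR adjusted p = 9.21e-11).

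Inhibitors of the cell cycle and p53 targets did not move as a group: of 24 tested, 7 rose and 9 fell, and with total-count scaling 9 rose and 7 fell. Cdkn1a, the p53 target p21, stood at 644 and 626 CPM at d0 and 722 and 711 CPM at d2, a log2 fold change of 0.17 ± 0.10 that did not pass in edgeR (adjusted p = 0.143), and passed with total-count scaling (0.44) and in a fit of WT d0 and d2 alone (0.21). Cdkn2a, the Ink4a/Arf gene known as a barrier to reprogramming, stood at 74.1 and 64.4 and then 55.3 and 60.3 CPM and did not pass either (adjusted p = 0.122). Its neighbour Cdkn2b fell from 110.1 and 105 to 27.0 and 28.8 CPM (log2 fold change -1.95 ± 0.14), and Cdkn1c, p57, from 28.1 and 28.2 to 0.531 and 1.16 CPM. Perp, a p53 target of cell junctions, rose from 10.4 and 9.69 to 143 and 142 CPM.

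Genes for making ribosomes rose without exception among the 30 listed, 10 of them beyond 2-fold, with a median log2 fold change of 1.09. Their share of counts went from 0.495% and 0.463% at d0 to 1.34% and 1.36% at d2. Ncl, nucleolin, stood at 1261 and 1286 CPM at d0 and 3500.2 and 3679.6 CPM at d2 (log2 fold change 1.5 ± 0.09), and was 1 of 3 rising genes among the 10 most abundant d2 genes that passed the 2-fold test. The other 2 were the surface protein gene Cd109, from 326 and 363 to 1327 and 1349 CPM, and the mitochondrial chaperone gene Hspd1, from 598 and 565 to 1328 and 1318 CPM. Polr1b, a subunit of RNA polymerase I, went from 33.7 and 40.8 to 131 and 125 CPM, and Dkc1, which modifies ribosomal RNA, from 90.0 and 81.3 to 252 and 257 CPM. Ribosome biogenesis is a known target programme of Myc. The E-box CACGTG, a sequence that Myc and other factors bind, was present in 5 of 29 promoters of these genes (17.2%), against 7.15% of all promoters. It was also present in 4 of 35 promoters of the replication genes that rose (11.4%), and in 3 of 12 promoters of the cholesterol genes that fell (25%). Nucleotide synthesis followed, with 15 of 16 genes higher and 8 beyond 2-fold: Umps, which makes UMP, went from 80.0 and 75.0 to 233 and 231 CPM, and Cad, which starts pyrimidine synthesis, from 161 and 188 to 527 and 494 CPM.

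Fuel metabolism changed in its parts. Of 19 glycolysis genes, 9 rose and 6 fell, and with total-count scaling 12 rose and 2 fell. Slc2a3, the high-affinity glucose carrier GLUT3, stood at 5.42 and 5.31 CPM at d0 and 109 and 111 CPM at d2 (log2 fold change 4.36 ± 0.11), while Slc2a1, which codes for GLUT1, fell from 142 and 138 to 56.2 and 56.3 CPM. Slc16a1, a lactate carrier, rose from 31.1 and 29.1 to 192 and 189.9 CPM. In the serine and one-carbon list 9 of 16 genes rose and 6 fell: Gldc, of the glycine cleavage system, rose from 0.268 and 0.306 to 9.80 and 9.26 CPM, against 297 CPM in iPSCs, Shmt1 rose from 16.0 and 14.8 to 84.0 and 81.3 CPM, and the mitochondrial enzyme Aldh1l2 fell from 106 and 132 to 6.86 and 7.60 CPM. The oxidative phosphorylation list had 9 of 25 genes higher, 1 lower and none beyond 2-fold; Atp5a1, of the ATP synthase, stood at 881 and 837 and then 1165 and 1205 CPM. With total-count scaling 17 of the 25 were higher and none lower.

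Stress and secretion genes were mostly lower. Of 16 genes of the unfolded protein response, which protects the secretory pathway, 14 fell (5 beyond 2-fold): the regulator Xbp1 went from 158 and 146 to 47.0 and 45.8 CPM and the chaperone gene Calr from 2260.3 and 1969 to 892 and 877 CPM. Of 15 genes that respond to the stress factor ATF4, 9 fell (7 beyond 2-fold) and 3 rose: Ddit3, the factor CHOP, went from 69.1 and 54.7 to 7.84 and 6.06 CPM and Trib3, its pseudokinase target, from 36.3 and 35.0 to 1.27 and 1.97 CPM. Of 20 lysosome genes, 18 fell, 8 beyond 2-fold, among them Cd63 from 1064 and 891 to 326 and 328 CPM. With total-count scaling 2 rose and 13 fell in the first of these lists, 5 and 8 in the second and 2 and 14 in the third. Of 23 genes for cholesterol synthesis and uptake, 18 fell (8 beyond 2-fold) and 1 rose, with a median of -0.97. Fdps, an enzyme of the mevalonate pathway, stood at 227 and 219 CPM at d0, 64.3 and 64.4 CPM at d2 and 133 and 139.7 CPM in noOKSM. Insig1, a sensor of sterols, stood at 121 and 133, 42.3 and 48.3 and 78.4 and 78.1 CPM. In the noOKSM libraries 14 of the 23 genes were lower than at d0 by the same test. For both genes the noOKSM values lay between those of d0 and d2. Of 12 fatty acid synthesis genes, 6 fell and 4 rose, with a median whose sign turned with total-count scaling, and Scd2, a desaturase, went from 1298 and 1464 to 441 and 439 CPM.

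In each of 3 lists of chromatin genes more members rose than fell, and some did not pass. Of 20 enzymes of H3K36 methylation and of the Polycomb complex PRC2, 12 rose and 1 fell, with a median of 0.40. Ezh2, the H3K27 methyltransferase of PRC2, went from 70.0 and 66.7 to 136 and 130.5 CPM, its relative Ezh1 from 19.5 and 22.8 to 65.1 and 61.5 CPM, and Whsc1, the H3K36 methyltransferase NSD2, from 101 and 116 to 190.1 and 192 CPM, while the PRC2 partner Phf1 fell from 21.6 and 18.8 to 5.72 and 6.87 CPM. Of 9 DNA methylation genes, 6 rose and none fell: Dnmt1, the maintenance methyltransferase, stood at 134 and 146 and then 328 and 316 CPM, its partner Uhrf1 at 69.4 and 81.6 and 203 and 209 CPM, and Dnmt3b, a de novo enzyme, at 1.56 and 1.99 and 4.98 and 5.44 CPM, still far from 160.0 CPM in iPSCs. Of 12 chromatin factors described as barriers to reprogramming, 8 rose and none fell, including Chaf1b of the histone chaperone CAF-1, from 21.0 and 21.7 to 52.0 and 50.3 CPM, and Suv39h2, an H3K9 methyltransferase, from 8.37 and 9.03 to 26.1 and 26.4 CPM.

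Imprinted genes are expressed mainly from the copy of 1 parent, and Hox genes hold a cell's position along the body axis; in both lists more genes fell than rose. Of 16 imprinted genes, 13 fell (10 beyond 2-fold) and 2 rose. Rian and Meg3, non-coding RNAs of 1 imprinted cluster, went from 751 and 768 to 57.3 and 55.6 CPM and from 543 and 484 to 39.2 and 34.7 CPM. H19, another imprinted non-coding RNA, stood at 679 and 722 CPM at d0, 20.4 and 21.6 CPM at d2 and 116 and 99.7 CPM in noOKSM, so it was low in both groups set against d0. Of 29 Hox genes, 17 fell, 6 beyond 2-fold, and none rose. Hoxb9 went from 63.2 and 66.3 to 11.0 and 10.9 CPM and Hoxa5 from 44.2 and 35.4 to 9.35 and 10.0 CPM. Of the 6 Hox genes beyond 2-fold, 5 belonged to the Hoxb cluster (Hoxb2, Hoxb5, Hoxb6, Hoxb8 and Hoxb9).

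Immune genes fell along with the markers of macrophages. Of 13 macrophage markers, 11 fell and 2 rose, their summed level going from 73.6 and 67.6 CPM at d0 to 19.5 and 20.0 CPM at d2, and it was 17.9 and 19.2 CPM in noOKSM, where 11 of the 13 were also lower than at d0. Lyz2, lysozyme, stood at 28.3 and 24.0 CPM at d0, 2.49 and 2.31 CPM at d2 and 4.26 and 6.54 CPM in noOKSM, and C1qb, a complement chain, at 7.30 and 8.01, 0.531 and 0.231 and 1.68 and 1.69 CPM. Beside them, 15 of 24 interferon and antigen presentation genes fell and 2 rose, with Isg15 going from 2.47 and 2.30 to 0.0817 and 0.193 CPM, and 9 of 17 cytokine and NF-kB genes fell and 5 rose. In noOKSM, 5 of the interferon and antigen presentation genes were higher than at d0 and none was lower. The part of the macrophage markers in these falls was not tested. The chemokine gene Cxcl12, which fibroblasts express, fell from 936 and 928 to 4.21 and 4.71 CPM (log2 fold change -7.71 ± 0.19, edgeR adjusted p = 5.84e-19), and Cxcl5, another chemokine gene, rose from 0.107 and 0.204 to 7.11 and 6.91 CPM.

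Markers of other cell types gave calls in both directions, and their part in the results was not tested. Of 9 endothelial markers, 1 rose and 3 fell: Tek, the angiopoietin receptor, went from 0.429 and 1.07 to 129 and 127 CPM, while Emcn, Kdr and Egfl7 fell and the other 5 did not pass. Of 12 neuronal markers, 5 rose (4 beyond 2-fold) and 3 fell (2 beyond 2-fold), with log2 fold changes from -2.18 to 8.16 over the list. Among those that rose, Stmn2, a microtubule regulator, went from 12.3 and 9.75 to 270.2 and 261 CPM. Nefl, a neurofilament chain, also rose, from 0.161 and 0.153 to 46.2 and 46.8 CPM. Of 11 muscle markers, 7 were tested: 3 fell, all beyond 2-fold, 1 (Chrna1) rose and 3 did not pass. Their sum was 497 and 447 CPM at d0 and 12.4 and 14.6 CPM at d2. Most of the d0 sum was Acta1, skeletal actin, at 399 and 361 and then 5.35 and 6.56 CPM. Of 5 tested adipocyte markers, Lpl, lipoprotein lipase, rose from 18.5 and 16.3 to 196 and 193 CPM and Cebpa rose, while Fabp4, Cd36 and Pparg fell. Cartilage and bone markers gave 5 falls and 2 rises of 9, led by Spp1, osteopontin, from 413 and 349 to 4.57 and 4.82 CPM. Keratinocyte (2 higher, 3 lower of 12, but 3 and 1 with total-count scaling), trophoblast (1 and 1 of 6) and primitive endoderm markers (1 and 2 of 7) gave few calls, and none of the erythroid markers had enough counts to be tested.

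The 15 largest rises among genes of at least 10 CPM were of many kinds. Sprr2b, a protein of the cornified envelope of skin, and Gabra2, a subunit of the GABA-A receptor, had no count at d0 and reached 19.6 and 19.0 and 19.7 and 18.4 CPM, at least 246-fold and 243-fold higher. Aldh3a1, an aldehyde dehydrogenase, went from 0.215 and 0.102 to 160.2 and 153 CPM, Podxl, the sialomucin podocalyxin, from 0.751 and 0.867 to 252 and 243 CPM, and Fgfbp1, which carries fibroblast growth factors, from 0.0537 and 0 to 45.8 and 47.0 CPM. Akr1c18, Ugt1a6a, Pls1, Osbp2, Scg5 and Ceacam1 completed this group with Fgf4, L1td1, Nefl and Tek, with log2 fold changes from 7.39 to 10.52 where d0 was not at 0. Some of these genes were at low levels in iPSCs: Sprr2b stood at 0 CPM, Gabra2 at 0 CPM, Aldh3a1 at 0.906 CPM and Tek at 13.4 CPM on average, against 53.8 CPM for Podxl and 487 CPM for L1td1. In noOKSM cells 1 of the 15, L1td1, differed from d0, and it was lower.

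The 15 largest falls among genes of at least 10 CPM included several genes for secreted or surface proteins. Aspn, the small matrix proteoglycan asporin, stood at 70.1 and 76.6 CPM at d0 and 0 and 0.116 CPM at d2 (log2 fold change -10.14 ± 0.32, edgeR adjusted p = 2.84e-17). Wisp2, a secreted matricellular protein, went from 62.7 and 56.3 to 0.123 and 0 CPM, and Lrrc32, which anchors latent TGF-beta at the cell surface, from 224 and 257 to 0.531 and 0.502 CPM. Rspo2, a secreted enhancer of Wnt signalling, went from 20.3 and 20.9 to 0.0408 and 0.116 CPM, and Crispld2, a secreted protein, from 191 and 215 to 1.51 and 1.505 CPM. The others were Slc5a7, Adcyap1r1, ORF63, Itga11, Cxcl12, Olr1, Gjb2, Slc1a6, Foxs1 and Pgm5, down to a log2 fold change of -6.96 for the last. Of the 15 genes, 7 were also lower in noOKSM than at d0, and 2, Slc5a7 and Adcyap1r1, were higher there. All 10 of the most abundant d0 genes with a change beyond 2-fold fell, led by Thbs1, the matrix protein thrombospondin 1, from 13807 and 15762 to 3362 and 3452 CPM. At d2, Thbs1, Acta2, Col1a2, Tpm1, Cald1, Itgb1 and Serpinh1 were the falling genes among the 10 most abundant such genes.

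WT fibroblasts without OKSM were set beside d0 to show which differences are also seen in cells without the factors. They carry another library-name prefix than d0 and d2, and their titles give no day. Whatever the prefix marks, culture and time therefore cannot be told apart in these differences. The comparisons share libraries, so their values are given side by side. Against d0, 1389 genes differed in noOKSM (8.2% of those tested), 702 higher and 687 lower. With total-count scaling these were 516 and 977. Leaving out WT d0 replicate 1, noOKSM replicate 1 or noOKSM replicate 2 brought the 1389 down to 649, 635 and 728. Cobl, an actin regulator, stood at 8.86 and 8.52 CPM at d0, 37.1 and 37.3 CPM in noOKSM and 200.5 and 192 CPM at d2, and Dsp, the desmosome protein desmoplakin, at 4.08 and 4.95, 22.8 and 23.0 and 28.2 and 22.8 CPM. Uts2d, Serpinb2, Dgkk and Cd59a were higher than d0 in noOKSM and lower than d0 at d2 (for Serpinb2 the latter did not pass without WT d2 replicate 2, adjusted p = 0.101). Cd200 and Mpeg1 stood at 12.8 and 14.2 and 11.3 and 11.7 CPM at d0, 0.314 and 0.242 and 1.61 and 2.82 CPM in noOKSM, and 5.11 and 5.25 and 0.490 and 0.579 CPM at d2. Apobec3, a DNA-editing enzyme, was lower in noOKSM (4.19 and 3.83 CPM) and higher at d2 (43.2 and 44.1 CPM) than at d0 (22.1 and 20.3 CPM). Against noOKSM in place of d0, d2 gave 10122 calls (59.8%), 4760 higher (28.1%) and 5362 lower (31.7%; 6904 and 3825 with total-count scaling), with Pou5f1, Fgfbp1, Aldh3a1, L1td1, Sprr2b and Sox2 as the largest rises and Aspn, Slc5a7, Adcyap1r1, Wisp2, Lrrc32 and Uts2d as the largest falls.

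K36M cells were sampled on the same days and share no library with WT. In them 10352 genes (61.1%) differed between d2 and d0, 5072 higher (30%) and 5280 lower (31.2%). Of the 9779 WT calls, 7983 were called in the same direction in K36M, which is 81.6% of the WT calls and 77.1% of the K36M calls, and 117 in the opposite direction. Of the 3070 genes beyond 2-fold in WT, 2873 (93.6%) were called in the same direction in K36M. All 30 of the largest rises and falls were among them. A direct test of the difference between the 2 changes called 1791 genes (10.6%), 704 with a more positive log2 change in K36M (4.16%) and 1087 with a more negative one (6.42%). Upper quartile scaling split the calls into 874 and 876, and a fit of only the WT and K36M groups of d0 and d2 called 3382 genes. Leaving out WT d0 replicate 1 or K36M d2 replicate 1 brought the 1791 down to 1109 and 1099. Among the 1939 genes that fell beyond 2-fold in WT, 273 had a more negative change in K36M and 187 a more positive one, and among the 1131 that rose, 67 had a more positive change and 128 a more negative one.

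The genotype difference had a direction in several lists. In the fibroblast matrix list, 18 of 29 genes had a more negative change in K36M and 2 a more positive one: Thbs1 stood at 13309.9 and 13323 CPM at d0 and 516 and 545 CPM at d2 in K36M (difference of the log2 changes -2.53 ± 0.24, edgeR adjusted p = 1.58e-07). In the epithelial list 12 of 30 had a more positive change in K36M and none a more negative one. Cdh1 reached 8.56 and 7.32 CPM and Epcam 5.24 and 4.28 CPM in K36M at d2, where WT d2 stayed under 1 CPM. The difference for Epcam was 3.88 ± 0.54 (edgeR adjusted p = 3.20e-05). That for Cdh1 (4.65 ± 1.09, edgeR adjusted p = 0.00597) rested on WT d0 replicate 1, the WT d0 library with all of its reads. Without that library WT d0 held no Cdh1 count, so the fitted difference (-0.48) has no reliable size or sign. In the cholesterol list 12 of 23 and in the fatty acid list 6 of 12 were more negative in K36M. The summed cholesterol genes averaged 3586 CPM in K36M and 2872 CPM in WT at d0, and 1423 and 1527 CPM at d2. Fatty acid genes averaged 4216 and 3351 CPM at d0, and 2255 and 2485 CPM at d2. Both lists thus stood higher in K36M at d0 already. The ribosome biogenesis list gave 1 call of 30 and the nucleotide synthesis list none of 16 in this test.

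**Figure D5:**
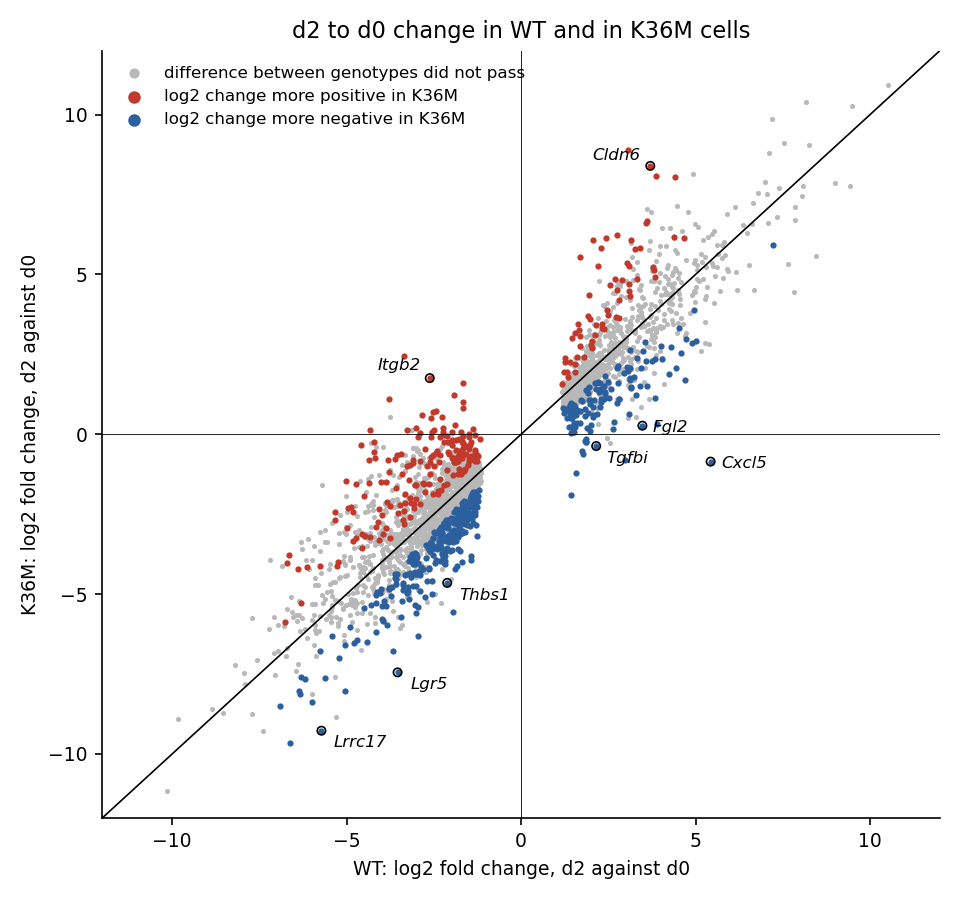
Log2 fold change of d2 against d0 in WT (x axis) and in K36M (y axis) for 2832 of the 3070 genes that passed the 2-fold test in WT, with the line of equal change; 238 genes with a group at 0 are not drawn, and the empty band around x = 0 is set by the WT test. Most genes lie near the line, the coloured points passed the test of the difference between genotypes, and few lie in the quadrants of opposite sign.

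Of the 3070 genes, 13 were called in opposite directions in the 2 genotypes, and those named here were picked after their values were seen. Cxcl5 rose in WT and stood at 2.14 and 3.18 CPM at d0 and 1.56 and 1.36 CPM at d2 in K36M. Tgfbi, a matrix protein induced by TGF-beta, rose in WT and stood at 44.6 and 49.8 and then 35.1 and 38.0 CPM in K36M, a difference of -2.52 ± 0.17 (edgeR adjusted p = 1.36e-09). Itgb2, an integrin chain of blood cells, went from 1.18 and 1.79 to 0.204 and 0.270 CPM in WT and from 0.625 and 0.553 to 2.30 and 1.68 CPM in K36M. Summed macrophage markers stood at 22.0 and 22.2 CPM at d0 and 11.4 and 11.1 CPM at d2 in K36M, and their part in these differences was not tested. Of the 13, 6 rose and 7 fell in WT.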

How the data were processed

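Poly(A)-selected RNA, extracted with a miRNeasy kit, was made into directional NEBNext Ultra libraries and sequenced on Illumina HiSeq instruments, per the labels' protocols. The authors deposited 1 table of raw counts per gene and library. STAR 2.5.0, HTSeq 0.11.2, edgeR and the build mm9 are named in the submitters' processing notes; no source used here gives the annotation, the strand setting or how multiply mapped reads were treated. Without them, counts of overlapping genes, antisense genes and near-identical copies are uncertain.

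From these counts, edgeR 4.0.16 and limma 3.58.1 under R 4.3.3 gave every test below. All 28 libraries of 14 groups entered 1 quasi-likelihood fit with 14 residual degrees of freedom, after filterByExpr by group (minimum count 10, minimum total 15) and TMM scaling. Genes passed at a Benjamini-Hochberg adjusted p below 0.05 over all 16932 genes tested, and changes beyond 2-fold were tested with glmTreat. The biological coefficient of variation was 9.15%. The chi-square per degree of freedom between the 2 replicates was 21.9 at d0 and 2.54 at d2. CPM are counts over the TMM-scaled library size. Levels are not divided by gene length, so they compare libraries and not genes. A gene with no count on a day has no fitted fold given; its bound takes 3 counts over the group as the floor. Floors cover counting error only. Each ± is an approximate standard error: the absolute log2 value divided by the square root of its quasi-likelihood F statistic. That statistic takes in the spread between replicates. For genes with few counts on a day, such as Aspn at d2 and L1td1 at d0, the ± is too small.

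Named genes were, with at least 10 CPM and groups that do not overlap, the 15 largest rises and falls, the 10 most abundant genes of each day beyond 2-fold, 6 rises and 6 falls of each other comparison, up to 4 members of each list with the largest change, and a fixed set of identity and cell cycle genes. Further genes, named where a small count or a promoter called for it (such as Srf, Mcm6, Tgfbi and Itgb2), were chosen after their values were seen. Some genes that the rule names are not reported here. The comparison and the lists were chosen with earlier results of these data known. Alternatives were other scalings, other filters, a fit of only the groups compared, a replicate block, DESeq2 1.42.0 and leaving out each library.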

Additional observations from a re-analysis of the deposited data

Results flagged for a closer look

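The change from d0 to d2 differed between WT and K36M cells for 1791 genes by edgeR's test of the difference. Those that follow are the 6 largest differences in each direction by the naming rule and the members of the fixed set that passed. Values below are the log2 change in K36M minus that in WT, and no cause was tested. Genes with a more positive change in K36M were Tal1 (5.84), Inpp5d (5.70), Cldn6 (4.69), Cdh1 (4.65), Notch4 (4.21) and Epcam (3.88). Shisa3 and Btn1a1, whose K36M d0 libraries had no count, also differed, with edgeR adjusted p of 0.0450 and 0.0352. Genes with a more negative change in K36M were Igsf10 (-4.45), Lgr5 (-3.91), Lrrc17 (-3.55), Cyp26b1 (-3.39), Adamtsl3 (-3.22) and Fgl2 (-3.21). Among the genes of fibroblast identity, Prrx1 (-1.46), Col1a1 (-1.13), Zeb2 (-0.92), Thy1 (-0.88) and Snai2 (-0.78) were more negative in K36M, and so was the proliferation marker Mki67 (-0.75). Igsf10 stood at 13.7 and 16.5 CPM at d0 and 32.8 and 28.3 CPM at d2 in WT, and at 109 and 113 and then 10.1 and 10.4 CPM in K36M. Tal1, a transcription factor of blood development, stood at 0.107 and 0.102 and then 0.654 and 1.16 CPM in WT, and at 0.0446 and 0 and then 13.3 and 13.4 CPM in K36M. When 1 library was left out, the test was no longer passed in at least 1 case by Shisa3, Tal1, Cldn6, Btn1a1, Cdh1, Snai2, Col1a1 and Mki67. The difference of Cdh1 went from 4.65 to -0.48 without WT d0 replicate 1, which held all of its WT d0 reads. With WT d0 then at 0, the latter value has no reliable size or sign. The difference of Snai2 did not pass without any 1 of the WT and K36M libraries of d0 and d2.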

How the results depend on the processing

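The calls between d2 and d0 ranged from 8621 to 8874 when 1 library was left out, those beyond 2-fold from 2692 to 2762, those between d2 and noOKSM from 8839 to 9066, those between noOKSM and d0 from 635 to 1379, and those of the genotype difference from 1099 to 1925. The last is 3382 with only the groups compared in the fit; the lower counts rest on fewer samples. With total counts, which moved the median of all genes by 0.22, the H3.3 list gave 2 calls, the AP-1 list 7 and the oxidative phosphorylation list 17, and with upper quartile scaling the keratinocyte list gave 3; the cause was not tested. Total counts also gave fewer falls in some lists: 13 for TGF-beta, 14 for mesenchymal factors and 10 for imprinted genes. Fibroblast surface genes then gave 9 falls and collagen-modifying enzymes 15, while matrix genes kept 26 and contractile genes 21. Of 243 named genes, none reversed in the 12 alternative settings, over the 2901 combinations of gene and setting that could be read. Some genes were filtered out in some settings. In at least 1 setting 17 genes crossed the threshold: Adamtsl3, Cdh1, Cdkn1a, Chrna1, Col17a1, Cubn, Epcam, H3f3b, Ifit1, Krt14, Krt8, Matn1, Mmp3, Nanog, Prrx1, Serpinb2 and Snap25. Of 22 genes with a printed genotype difference, read under these settings after the data were seen, 8 crossed the threshold in at least 1 and the fitted sign of Cdh1 turned (-0.48 to 5.67 when 1 library was left out, the lowest without WT d0 replicate 1). Without that library WT d0 held no Cdh1 count, so this turn does not show that the direction differs. DESeq2 was not run for the 2-fold test.

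With the replicate number as a block, 9829 genes were called between d2 and d0, 3074 beyond 2-fold, 1389 between noOKSM and d0, 10137 between d2 and noOKSM, and 1819 for the genotype difference. The labels do not say that a number marks a shared culture, and same-numbered libraries deviated together in some pairs of groups but not in most. Of 91 pairs of groups, 22 had a correlation of deviations over 0.1. The range ran from -0.546 (WT d0 with K36M noOKSM) to 0.557 (WT d0 with WT d4), and for WT d0 with WT d2 it was -0.03. The numbers were therefore not taken as pairing.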
